A study of Mus musculus with 12 samples.

Results

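Basophils, eosinophils and mast cells are blood-derived cells that store proteases, basic proteins or histamine in large granules and are known for their part in allergy and in defence against parasites. Basophils and mast cells bind immunoglobulin E through a receptor made of an alpha chain, a beta chain and a signalling gamma chain, and the progenitors of all these cells use GATA factors beside C/EBP factors. The genes described here are 8 of the 35976 gene symbols in the count table, chosen by name and all found. They are the basophil proteases Prss34 and Mcpt8, the eosinophil granule genes Prg2, Prg3 and Epx, and the genes Cpa3, Ms4a2 and Fcer1a, which mast cells and basophils share.

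The libraries hold polyadenylated RNA from CD45.2-positive bone marrow cells of the C57BL/6 strain, sorted by flow cytometry. There were 3 libraries each of leukemia cells with the fusion BRD9-NUTM1 (BN1), of leukemia cells with MLL-AF9 (MA9) and of leukemia cells with MLL-ENL (ME), and 3 libraries of marrow labelled WT, for which no fusion is named (WT). The labels give every group as CD45.2-positive and give no age, no other allele or agent, no way by which the fusion was brought in, and no number of animals. No label says that the 3 libraries of 1 group stem from different mice, so the p-values describe how far these libraries scatter, and that scatter may be technical. Any normal cell that carries CD45.2 would pass the same sort, and in sorted bulk cells fewer cells of a type and less RNA per cell cannot be told apart.

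Library totals ran from 18292636 to 25732049 counts. ME replicate 3 stood apart from the other ME libraries over all genes (mean chi-square per gene 32.3 and 35.2, against at most 7.51 for other pairs of replicates). Without it, Mcpt8 stood at 18.2% of WT in ME, Prg3 at 63.5% and Ms4a2 at 7.08%, and the number of the 8 genes called was the same in each comparison. Levels are given in CPM, the count per 1e+06 of the TMM-scaled library size, as mean ± SD over 3 libraries, and 3 counts over a whole group correspond to 0.0413 CPM in BN1, 0.0471 CPM in MA9 and 0.0494 CPM in ME. A residual level is the summed count of a leukemia group per effective library size as a percent of that in WT, with an exact 95% interval from the 2 counts, and a fold against a group without counts is a bound from 3 counts over that group. Intervals cover counting error only, and bounds cover that of the group without counts alone. Log2 values ± SE come from edgeR's quasi-likelihood fit (the SE is approximate), p-values were adjusted by Benjamini-Hochberg over the 15334 genes tested, and a gene was called at an adjusted p under 0.05. The 8 genes passed the filter on low counts, but Prss34, Prg2, Epx and Fcer1a (4 of 8) passed through the WT libraries only. A gene that passes in this way had to differ from WT, so nothing is read from how many of the 8 were called against WT.

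GATA factors bind short sites in regulatory DNA, and the promoter windows of 4 genes are shown because these genes represent the patterns found: a level kept in every leukemia (Mcpt8 and Ms4a2), kept in MA9 alone among the leukemias (Cpa3) and near 0 in every leukemia (Prss34). The windows run from 250 bases before to 50 bases after a start that RefSeq gives on GRCm38.p6, and were matched by symbol for 7 of the 8 genes, all but Prg2. Capitals mark the GATA letters AGATAA (also with G as the last letter, with T as the first, or with both) and the E-box letters CACGTG (also with T as the third letter), a kind of site that the mast cell factor Mitf binds, on either strand.
Mcpt8 (chr14:56085148-56085447, minus strand): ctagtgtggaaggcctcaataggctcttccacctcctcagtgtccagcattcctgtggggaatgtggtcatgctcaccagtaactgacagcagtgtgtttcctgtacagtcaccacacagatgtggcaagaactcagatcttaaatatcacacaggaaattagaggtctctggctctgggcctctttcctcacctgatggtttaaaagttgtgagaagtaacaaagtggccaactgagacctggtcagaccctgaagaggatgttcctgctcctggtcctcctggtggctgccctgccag
Ms4a2 (chr19:11623670-11623969, minus strand): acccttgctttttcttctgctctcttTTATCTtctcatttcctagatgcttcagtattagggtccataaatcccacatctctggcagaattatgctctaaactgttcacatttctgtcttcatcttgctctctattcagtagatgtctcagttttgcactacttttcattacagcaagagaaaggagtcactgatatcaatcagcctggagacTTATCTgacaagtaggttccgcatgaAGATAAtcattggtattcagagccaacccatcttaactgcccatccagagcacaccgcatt
Cpa3 (chr3:20242132-20242431, minus strand): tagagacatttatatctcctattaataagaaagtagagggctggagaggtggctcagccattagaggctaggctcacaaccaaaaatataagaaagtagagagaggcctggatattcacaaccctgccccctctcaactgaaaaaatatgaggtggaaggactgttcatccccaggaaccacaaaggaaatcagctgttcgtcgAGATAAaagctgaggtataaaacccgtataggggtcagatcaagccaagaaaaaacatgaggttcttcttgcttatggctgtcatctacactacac
Prss34 (chr17:25298144-25298443, plus strand): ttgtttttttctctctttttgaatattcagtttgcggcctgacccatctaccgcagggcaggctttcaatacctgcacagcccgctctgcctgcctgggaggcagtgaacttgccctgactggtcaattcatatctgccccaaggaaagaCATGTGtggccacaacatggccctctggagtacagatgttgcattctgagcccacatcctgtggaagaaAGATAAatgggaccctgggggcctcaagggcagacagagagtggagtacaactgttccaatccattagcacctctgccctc

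A GATA match was present in 5 of the 7 windows, namely those of Prss34, Prg3, Cpa3, Ms4a2 and Fcer1a, and in 29.8% of the 32851 RefSeq windows of that length. Ms4a2 had 3 GATA matches, of which the nearest to the start began 11 bases before it (position -11), and the single matches of Prss34 and Cpa3 began at -31 and -46. The Mcpt8 and Epx windows held none of these letters. The Mcpt8 window ends at 56085447, inside the RefSeq gene span, which reaches 56085499, so the bases upstream of that outer end were not read. An E-box match was present in 3 of the 7 windows, those of Prss34, Prg3 and Fcer1a, against 20.4% of all windows. GATA matches were found in windows of genes that were near 0 and of genes that were not, and a match describes the letters only.

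In the leukemias the 8 genes parted into 3 kinds. Prss34, Epx, Fcer1a and Prg2 were at or near 0 in BN1, MA9 and ME, with at most 9 counts over a group. Mcpt8 and Ms4a2 were kept at a reduced level in each leukemia, at 13.4% to 18.4% of WT for Mcpt8 and 7.66% to 8.79% for Ms4a2. Cpa3 and Prg3 differed between the leukemias, with Cpa3 at 26.8% of WT in MA9 and at no more than 2 counts in BN1 or ME, and Prg3 above WT in MA9, below it in ME and at 6 counts in BN1.

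**Figure D1:**
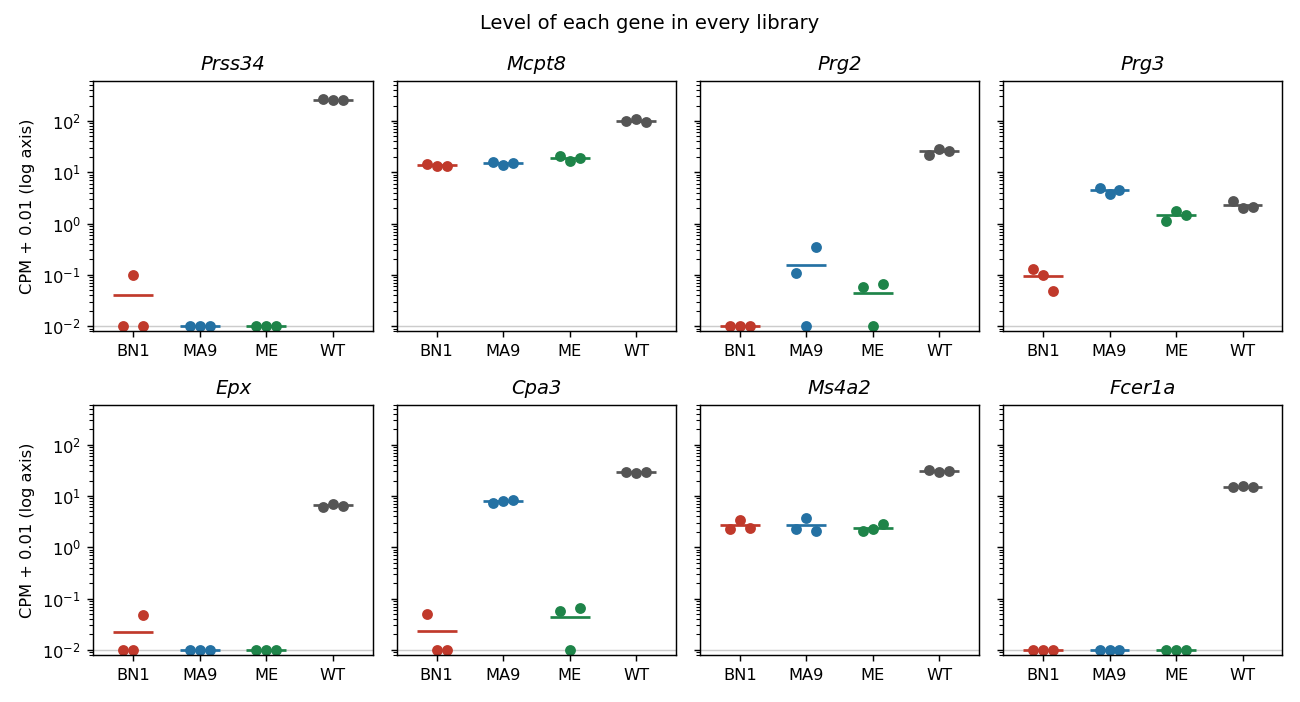
Level of each of the 8 genes in every library, as CPM + 0.01 on a log axis, with points for libraries, bars for group means and a grey line at no counts. Mcpt8 and Ms4a2 stayed above 2 CPM in every leukemia library, whereas Fcer1a had no count in any of them.

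Positions are those of the protein-coding genes on GRCm38 (mm10). Among the basophil proteases, Prss34 (chromosome 17, from 25298394 to 25300165) encodes a trypsin-like protease stored in basophil granules and was the most abundant of the 8 per transcript length in WT. It had 2 counts in BN1, both in replicate 2 (0.0899 CPM there), and none in MA9 or ME, against 264, 259.8 and 252 CPM in the WT libraries. The residual level in BN1 was 0.0106% of WT (interval 0.00129% to 0.0384%). Prss34 was at least 5493-fold lower in MA9 and at least 5240-fold lower in ME than in WT. No leukemia library came near the WT libraries, which lay close together.

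Mcpt8 (chromosome 14, from 56082166 to 56085273) encodes the protease mMCP-8, which in the mouse is used to mark basophils. It stood at 14.4, 13.4 and 13.2 CPM in the BN1 libraries, at 16.0, 13.8 and 15.3 CPM in MA9 and at 20.3, 16.9 and 19.4 CPM in ME, against 102, 107 and 97.1 CPM in WT. Every leukemia library lay below every WT library, and the ME libraries lay above those of BN1 and MA9, which overlapped each other. The residual level was 13.4% of WT in BN1 (interval 12.5% to 14.4%), 14.7% in MA9 (13.7% to 15.7%) and 18.4% in ME (17.3% to 19.7%). Mcpt8 fell in every leukemia, with edgeR log2 fold changes against WT of -2.90 ± 0.08 for BN1 (adjusted p = 4.4e-23), -2.77 ± 0.08 for MA9 (adjusted p = 1.4e-22) and -2.44 ± 0.07 for ME (adjusted p = 1.6e-21). The basophil proteases did not stay in proportion to each other. Mcpt8 made up 78.7% to 85.8% of the counts of the 8 genes in BN1, 47.3% to 52.0% in MA9, and in ME 80.7% to 86.1%, against 21.2% to 22.5% in WT.

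Of the eosinophil genes, Prg2 (chromosome 2, from 84980461 to 84983632) encodes the major basic protein of the eosinophil granule. It had no counts in BN1, 2, 0 and 7 counts in the MA9 libraries and 1, 0 and 1 counts in the ME libraries, against 436, 505 and 479 counts in WT. Prg2 was at least 614-fold lower in BN1 than in WT, and its residual level was 0.558% in MA9 (interval 0.254% to 1.06%) and 0.130% in ME (0.0157% to 0.470%). The MA9 value rests on replicate 3 and was 0.183% without it. Epx (chromosome 11, from 87864000 to 87875536), the eosinophil peroxidase gene, had 1 count in BN1 and none in MA9 or ME, against 122, 126 and 118 counts in WT. Its residual level in BN1 was 0.211% (interval 0.00532% to 1.18%), and it was at least 139-fold lower in MA9 and at least 132-fold lower in ME than in WT.

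Prg3 (chromosome 2, from 84988215 to 84993886) lies 4.6 kb from Prg2 and encodes a second, closely related basic protein of eosinophils. It gave 0.123, 0.0899 and 0.0383 CPM in the BN1 libraries, 5.02, 3.80 and 4.52 CPM in MA9 and 1.11, 1.77 and 1.44 CPM in ME, against 2.69, 2.02 and 2.09 CPM in WT. No BN1 library reached any other group, every MA9 library lay above every WT library, and every ME library lay below every WT library. Prg3 fell in BN1 (edgeR log2 fold change against WT -4.69 ± 0.42, adjusted p = 4.4e-11), rose in MA9 (0.96 ± 0.22, adjusted p = 0.00027) and fell in ME (-0.65 ± 0.25, adjusted p = 0.021). The ME call was lost without WT replicate 1 (adjusted p = 0.12) or without ME replicate 1 (adjusted p = 0.11). The residual level was 3.61% of WT in BN1 (interval 1.30% to 8.08%), 193% in MA9 (156% to 239.9%) and 63.4% in ME (47.8% to 83.8%). Prg2 and Prg3, neighbours and paralogs, thus parted in MA9 and in ME. Prg3 had 281 counts and Prg2 had 9 in MA9, and Prg3 had 88 and Prg2 had 2 in ME. In WT there were 128 counts of Prg3 and 1420 of Prg2, and in BN1 there were 6 of Prg3 and 0 of Prg2. The labels do not say how reads shared by the 2 genes were assigned.

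Cpa3 (chromosome 3, from 20215620 to 20242181) encodes carboxypeptidase A3, a granule protease of mast cells that basophils and their progenitors also express. It stood at 7.38, 7.89 and 8.21 CPM in the MA9 libraries. There was 1 count over the BN1 libraries and there were 2 over the ME libraries, against 29.9, 28.6 and 29.1 CPM in WT. The MA9 libraries lay between the other leukemias and WT with no overlap. Cpa3 fell in MA9 with an edgeR log2 fold change against WT of -1.90 ± 0.12 (adjusted p = 1.1e-14). Its residual level was 0.0470% in BN1 (interval 0.00119% to 0.262%), 26.8% in MA9 (24.2% to 29.6%) and 0.113% in ME (0.0136% to 0.407%).

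The chains of the IgE receptor also parted. Fcer1a (chromosome 1, from 173221284 to 173227214) encodes the alpha chain, which binds the antibody, and Ms4a2 (chromosome 19, from 11615523 to 11623719) encodes the beta chain, which in the mouse is needed for the receptor to reach the surface. Fcer1a had no counts in any leukemia library, against 297, 275 and 274 counts in WT, and was at least 366-fold lower in BN1, at least 321-fold lower in MA9 and at least 306-fold lower in ME. Ms4a2 gave 2.22, 3.46 and 2.33 CPM in the BN1 libraries, 2.26, 3.67 and 2.04 CPM in MA9 and 2.08, 2.27 and 2.78 CPM in ME, against 32.6, 29.2 and 30.1 CPM in WT. The leukemia groups overlapped one another, and each lay far below WT. Ms4a2 fell in every leukemia, with edgeR log2 fold changes of -3.53 ± 0.16 for BN1 (adjusted p = 3.6e-17), -3.51 ± 0.16 for MA9 (adjusted p = 5.9e-17) and -3.70 ± 0.17 for ME (adjusted p = 3.7e-17). The residual level was 8.60% in BN1 (interval 7.37% to 9.99%), 8.79% in MA9 (7.47% to 10.3%) and 7.66% in ME (6.42% to 9.09%). Fcer1g, the gamma chain that other Fc receptors share, stood at 246 ± 10.7 CPM in BN1, 177 ± 3.79 CPM in MA9 and 214 ± 12.8 CPM in ME, against 363 ± 8.07 CPM in WT, with log2 fold changes of -0.56 ± 0.05, -1.04 ± 0.05 and -0.76 ± 0.05 in that order (edgeR, largest adjusted p = 1.4e-11).

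**Figure D2:**
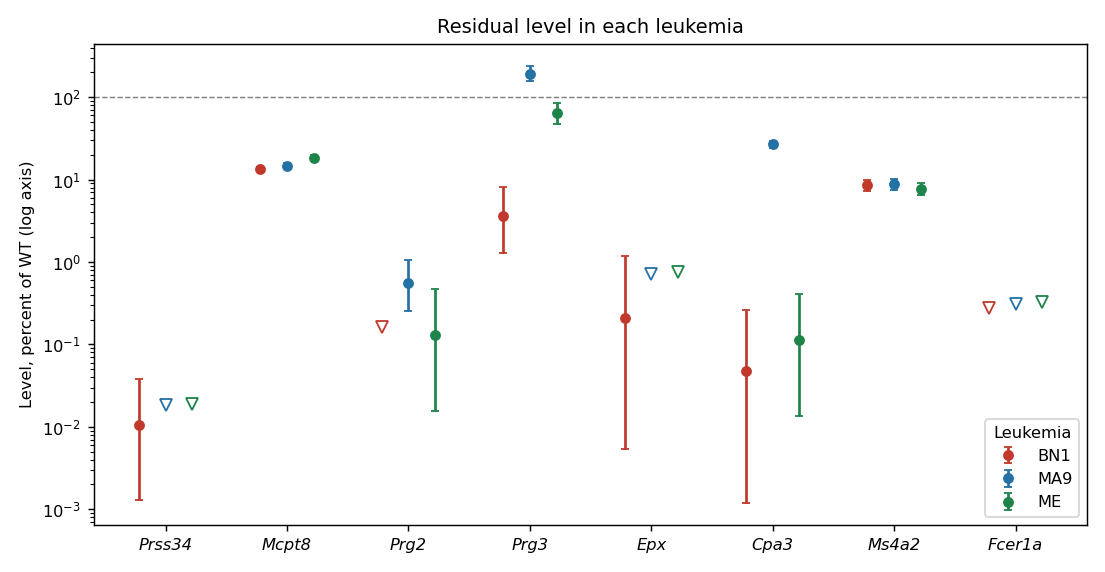
Residual level of each gene in each leukemia as a percent of WT on a log axis, with exact 95% counting intervals. Open triangles mark the bound for groups without counts, and the dashed line marks the WT level. Mcpt8 and Ms4a2 lay at similar heights in the 3 leukemias, and Cpa3 and Prg3 spread over more than an order of magnitude.

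Against WT, 8 of the 8 genes were called lower in BN1 and none higher, where 40.8% of all tested genes were called lower, 38.4% higher and 79.2% in either direction. In MA9, 7 were called lower and Prg3 higher, where 40.8% of tested genes were called lower, 39.3% higher and 80.1% in either direction. In ME, 8 were called lower and none higher, where 40.2% of tested genes were called lower, 39% higher and 79.2% in either direction. The median over the 8 was -9.46 in BN1, -5.47 in MA9 and -9.46 in ME on the log2 scale, against medians of -0.01, -0.01 and -0.01 over all tested genes, but it includes genes with 0 to 3 counts, whose fitted values depend on the prior count.

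The leukemias were then compared with each other, which asks whether the residual levels differ between these groups of libraries. No label says that a group stems from different mice, so the fusion and the source of the libraries cannot be told apart. Of the 8 genes, 3 were called lower in BN1 than in MA9 (Prg2, Prg3 and Cpa3) and none higher, where 34.9% of all tested genes were called lower, 32.8% higher and 67.7% in either direction. The 3 pairs of groups made 24 comparisons over the 8 genes, and p-values were adjusted over all genes within each pair. Cpa3 was 569-fold lower in BN1 than in MA9 by summed counts (interval 102 to 22538, adjusted p = 1.7e-18). Prg3 was lower with an edgeR log2 difference of -5.65 ± 0.37 (adjusted p = 1.3e-13). Prg2, with no counts in BN1 and 9 in MA9, was called lower (edgeR, adjusted p = 0.0093). With 3 counts set for BN1 it was 3.42-fold lower, which leaves out the counting error of the 9 MA9 counts. This call was lost without MA9 replicate 3 and with limma-voom, and Prg2 did not pass the filter when only the 2 groups were fitted. Mcpt8 differed by -0.13 ± 0.09 (95% interval -0.31 to 0.05, adjusted p = 0.19) and Ms4a2 by -0.02 ± 0.21 (-0.44 to 0.40, adjusted p = 0.95), neither of which passed the test.

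Between BN1 and ME, 2 of the 8 genes were called lower in BN1 and none higher, where 33% of tested genes were called lower, 31.8% higher and 64.7% in either direction. Mcpt8 was lower in BN1 than in ME (-0.46 ± 0.08, adjusted p = 2.8e-05), as was Prg3 (-4.04 ± 0.45, adjusted p = 7.6e-09). Ms4a2 differed by 0.17 ± 0.21 (95% interval -0.27 to 0.60, adjusted p = 0.5). Cpa3, with 1 count in BN1 and 2 in ME, was not distinguishable at this depth.

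Between MA9 and ME, Cpa3 and Prg3 were called higher and Mcpt8 lower in MA9, where 20.2% of tested genes were called higher, 20.4% lower and 40.6% in either direction. Cpa3 was 238-fold higher in MA9 than in ME by summed counts (interval 65.5 to 1971, adjusted p = 2.5e-17), and Prg3 was higher by 1.61 ± 0.23 on the log2 scale (adjusted p = 1.7e-06). Mcpt8 was lower by a log2 difference of -0.33 ± 0.09 (adjusted p = 0.0024). Ms4a2 differed by 0.19 ± 0.22 (95% interval -0.26 to 0.63, adjusted p = 0.53).

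The order of the genes was set out per kilobase of exon, using GENCODE M21 exon lengths, which may differ from those used in counting. In WT the levels were 212 ± 4.69 CPM per kb for Prss34, 102 ± 5.12 for Mcpt8, 30.4 ± 4.11 for Prg2, 19.3 ± 0.424 for Cpa3, 15.1 ± 0.345 for Fcer1a, 10.9 ± 0.625 for Ms4a2, 2.39 ± 0.186 for Epx and 2.39 ± 0.384 for Prg3, the last pair not differing beyond their spread. In BN1 Mcpt8 led with 13.7 ± 0.652 CPM per kb, followed by Ms4a2 with 0.95 ± 0.244 and Prg3 with 0.0884 ± 0.0452. In MA9 Mcpt8 (15.04 ± 1.14 CPM per kb) was followed by Cpa3 (5.16 ± 0.275), Prg3 (4.68 ± 0.650) and Ms4a2 (0.944 ± 0.314), and Cpa3 and Prg3 did not differ beyond their spread. In ME Mcpt8 (18.9 ± 1.80 CPM per kb) was followed by Prg3 (1.52 ± 0.346) and Ms4a2 (0.844 ± 0.129). Mcpt8 was thus the first of the 8 in each leukemia and the second in WT.

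Some of the genes lie beside genes of primary granules, the granules that early neutrophil precursors make. Ctsg (cathepsin G) lies 14.6 kb from Mcpt8, Ms4a3 5.8 kb from Ms4a2 and Mpo (myeloperoxidase) 59.6 kb from Epx. Ctsg stood at 1994 ± 21.7 CPM in BN1, 1575 ± 33.5 CPM in MA9 and 1752 ± 48.9 CPM in ME, against 97.5 ± 2.57 CPM in WT. Ms4a3 stood at 484 ± 15.4 CPM in BN1, 265 ± 9.53 CPM in MA9 and 404 ± 50.3 CPM in ME, against 37.4 ± 4.92 CPM in WT. Mcpt8 and Ms4a2, next to Ctsg and Ms4a3, kept a residual level, and Epx near Mpo did not. Beside the 8 genes themselves, only primary granule genes were sought as neighbours, and a link between position and level was not tested. Any part of reads from these neighbours in the levels of Mcpt8 and Ms4a2 was not tested, and the annotated genes that overlapped the 8 in GENCODE M21 were the microRNA genes Mir6949 (Mcpt8) and Mir7007 (Cpa3).

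Further genes of these cell types were examined in 4 lists. Among all tested genes, 79.2% were called against WT in BN1 (38.4% higher, 40.8% lower), 80.1% in MA9 (39.3% higher, 40.8% lower) and 79.2% in ME (39% higher, 40.2% lower). List members near 0 in the leukemias entered the fit because of their WT counts, so the lists' counts and medians against WT are a description only. Of the 17 listed granule proteins and proteases, 16 were matched by symbol and 5 passed the filter. The tryptase and chymase genes Tpsb2, Tpsab1, Tpsg1, Mcpt1, Mcpt4 and Cma2, typical of tissue mast cells, had no counts in any of the 12 libraries, and Cma1 had 29 counts over the WT libraries and none in a leukemia. In BN1 1 gene was called higher and 4 lower (median log2 fold change -3.14, against -0.01 over all tested genes here and in the lists that follow), in MA9 1 higher and 3 lower (-5.51, the fitted value of Gzmb on few counts) and in ME 1 higher and 3 lower (-3.57). The 4 of 5 called in MA9 and in ME lie at the share over all tested genes. The gene that rose was Srgn, the granule proteoglycan serglycin of many blood cells, at 1414 ± 64.8 CPM in BN1, 882 ± 39.1 CPM in MA9 and 1222 ± 106 CPM in ME, against 314 ± 2.51 CPM in WT. Ear2, an eosinophil-associated ribonuclease, stood at 5.28 ± 0.266 CPM in BN1, 0.513 ± 0.157 CPM in MA9 and 3.93 ± 0.503 CPM in ME, against 46.5 ± 2.27 CPM in WT, and was lower in MA9 than in ME (-2.90 ± 0.21, adjusted p = 5.3e-12). Ear genes are near-identical, so the levels of Ear2 and of Ear1, which had no counts in the leukemias and 47 in WT, are uncertain. Gzmb, the protease granzyme B of killer cells and some mast cells, had 2 counts in BN1, 6 in MA9 and none in ME, against 257 in WT. Serpinb1a, a protease inhibitor, fell in BN1 (-0.68 ± 0.05, adjusted p = 3.1e-12) and stood at 307 ± 16.1 CPM in MA9 and 284 ± 24.1 CPM in ME, against 307 ± 10.1 CPM in WT.

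Of the 24 listed receptors, 22 were tested. There were 6 called higher and 14 lower in BN1 (median -0.69), 5 higher and 14 lower in MA9 (-0.90) and 5 higher and 13 lower in ME (-0.59), beside the 79.2% to 80.1% of all tested genes called. Several receptors of mature eosinophils and basophils were near 0. Il5ra, the receptor for the eosinophil cytokine IL-5, had 3 counts in MA9 and none in BN1 or ME, against 280 counts in WT, and the eotaxin receptor gene Ccr3 had 6 counts in BN1, 4 in MA9 and none in ME, against 208 in WT. Cd200r3, a basophil and mast cell receptor gene, had 4 counts in BN1, 4 in MA9 and none in ME, against 664 in WT, and Il1rl1, the IL-33 receptor, had 6 counts in BN1, none in MA9 and 3 in ME, against 1042 in WT. The histamine receptor gene Hrh4 and Enpp3, a surface enzyme of basophils, had no counts in the leukemias, against 86 and 49 in WT, and the integrin gene Itga2 had 5 counts in MA9 and none in the others, against 216 in WT. Ptger3, a prostaglandin receptor, had no counts in BN1, 0.0449 ± 0.0432 CPM in MA9 and 0.234 ± 0.0487 CPM in ME, against 2.65 ± 0.382 CPM in WT. By contrast Siglecf, a lectin that marks mouse eosinophils and some macrophages, rose to 9.93 ± 0.625 CPM in BN1 (0.56 ± 0.12, adjusted p = 0.0002), 33.5 ± 2.11 CPM in MA9 (2.32 ± 0.11, adjusted p = 1.2e-16) and 52.1 ± 6.42 CPM in ME (2.95 ± 0.11, adjusted p = 3.3e-19), against 6.69 ± 1.21 CPM in WT. Kit and Il3ra, receptors also found on early cells, rose as well. Kit, the stem cell factor receptor of progenitors and mast cells, was higher than in WT by log2 values of 1.28 ± 0.06 (BN1), 0.55 ± 0.06 (MA9) and 1.56 ± 0.06 (ME), and Il3ra, the IL-3 receptor alpha chain, by 0.86 ± 0.06, 1.46 ± 0.06 and 1.51 ± 0.06 in that order (edgeR, largest adjusted p of the 6 values 7.7e-10). Cd63, a granule membrane protein used to follow basophil activation, fell to 8.498 ± 0.788 CPM in BN1 and rose to 318 ± 4.46 CPM in MA9 and 177 ± 19.4 CPM in ME, against 107 ± 5.43 CPM in WT. Cd200r1, an inhibitory receptor of myeloid cells, went the other way, with 39.7 ± 1.60 CPM in BN1, 5.59 ± 0.929 CPM in MA9 and 6.83 ± 0.747 CPM in ME, against 16.1 ± 1.44 CPM in WT (largest adjusted p of the 3 edgeR tests 1.4e-10). Il18rap, a chain of the IL-18 receptor, fell by the edgeR test to 19.7 ± 1.26 CPM in BN1, 56.3 ± 2.99 CPM in MA9 and 80.6 ± 3.17 CPM in ME, against 240.2 ± 11.2 CPM in WT (largest adjusted p = 2.6e-20). The activation marker gene Cd69 was called higher in MA9 and ME, Tnfrsf13b lower in BN1 and the GM-CSF receptor chain gene Csf2ra higher in BN1, each with a log2 change between -0.67 and 1.41.

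**Figure D3:**
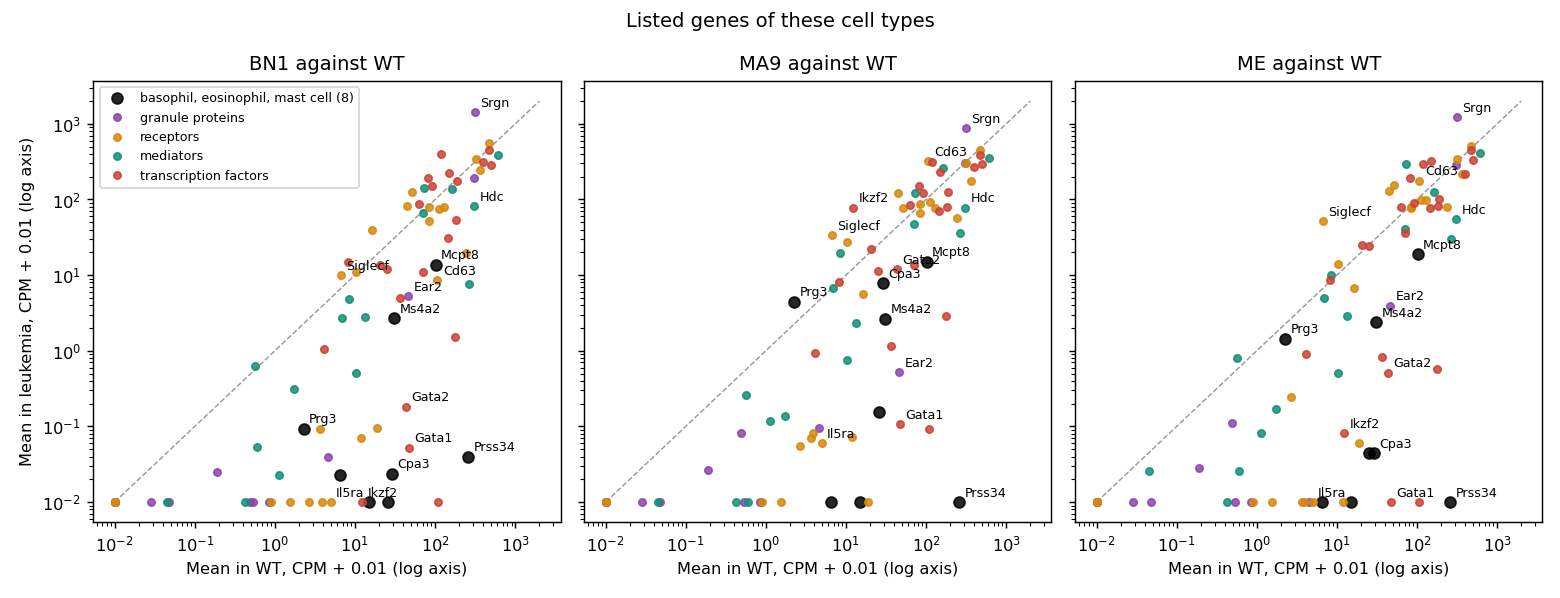
Mean level of the 8 genes and of the 4 lists in each leukemia against WT, both as CPM + 0.01 on log axes, with 1 point per gene and a dashed line of equal levels. Prss34 lies on or near the floor in each panel, and Srgn and Siglecf lie above the line in all 3. Gata2 and Cpa3 lie below the line in all 3 and nearest to it in the MA9 panel.

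Of the 16 listed mediator and cytokine genes, 13 were tested, with 1 called higher and 10 lower in BN1 (median -1.33), 3 higher and 8 lower in MA9 (-1.20) and 1 higher and 10 lower in ME (-0.80), which is near the 79.2% to 80.1% of all tested genes called. Hdc, histidine decarboxylase, which makes histamine, stood at 81.4 ± 3.53 CPM in BN1, 78.0 ± 2.25 CPM in MA9 and 55.1 ± 2.38 CPM in ME, against 306 ± 3.91 CPM in WT. By log2 fold change it fell in each leukemia, with -1.91 ± 0.05, -1.97 ± 0.05 and -2.48 ± 0.05 in that order (edgeR, largest adjusted p = 1.5e-23), and immature myeloid cells are also known to express it. Slc18a2, a transporter that loads amines such as histamine into vesicles, fell with log2 changes of -2.27 ± 0.21 (BN1), -2.50 ± 0.22 (MA9) and -2.19 ± 0.21 (ME; edgeR, largest adjusted p = 1.1e-09). Alox5, the enzyme that starts leukotriene synthesis, changed by -5.14 ± 0.07 in BN1, -2.88 ± 0.05 in MA9 and -3.15 ± 0.06 in ME on that scale. Ptgs1, a cyclooxygenase of the prostaglandin pathway, rose by 0.95 ± 0.05 in BN1, 0.74 ± 0.05 in MA9 and 2.04 ± 0.05 in ME. The largest adjusted p of these values of Alox5 and Ptgs1 was 3.3e-13. Alox15, a lipoxygenase of eosinophils, fell to 0.496 ± 0.145 CPM in BN1, 0.747 ± 0.142 CPM in MA9 and 0.502 ± 0.146 CPM in ME, against 10.3 ± 1.16 CPM in WT (edgeR, largest adjusted p = 6.7e-15), and Hpgds, a prostaglandin D synthase of mast cells, had 22, 8 and 10 counts in BN1, MA9 and ME, against 96 in WT. Ptgs2 had 1 count in BN1, 7 in MA9 and 4 in ME, against 62 in WT. The chemokine genes Ccl3 and Ccl9 rose in MA9 (1.23 ± 0.13 and 0.67 ± 0.05, largest edgeR adjusted p = 1.9e-09) and fell in BN1 (-0.78 ± 0.15 and -0.26 ± 0.05, largest adjusted p = 9e-05), and Ccl9 also fell in ME (-0.36 ± 0.05, adjusted p = 8.9e-07). Ccl4 fell in BN1 and ME, Ndst2 in MA9 and ME and Alox5ap in every leukemia, with log2 changes between -1.33 and -0.48. Ltc4s, the last enzyme of leukotriene C synthesis, had 44, 15 and 48 counts in BN1, MA9 and ME, against 31 in WT, and passed no test against WT. Il4, a cytokine of basophils, had no counts in the leukemias and 24 over the WT libraries.

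The 22 listed transcription factors of these fates were all tested, with 6 called higher and 14 lower in BN1 (median -0.93), 6 higher and 14 lower in MA9 (-0.67) and 5 higher and 13 lower in ME (-0.88), beside 79.2% to 80.1% of all tested genes called in either direction. Gata1, needed for eosinophils and red cells, had 3 counts in BN1, 6 in MA9 and none in ME, against 2648 in WT. Tal1, a partner of GATA factors, had 5 counts in MA9 and none in BN1 or ME, against 6001 in WT, and Zfpm1, which encodes the GATA cofactor FOG-1, fell to 1.49 ± 0.365 CPM in BN1, 2.87 ± 0.193 CPM in MA9 and 0.568 ± 0.393 CPM in ME, against 175 ± 16.9 CPM in WT (edgeR, largest adjusted p = 4e-21). Gata2, needed for mast cells and basophils and for stem cells, stood at 0.0822, 0.360 and 0.0766 CPM in the BN1 libraries, 11.8, 10.9 and 13.1 CPM in MA9 and 0.435, 0.635 and 0.444 CPM in ME, against 43.4, 43.9 and 42.9 CPM in WT. MA9 lay between the other leukemias and WT without overlap, as it did for Cpa3. Gata2 was lower in BN1 than in MA9 (-6.12 ± 0.24, adjusted p = 7.4e-19), higher in MA9 than in ME (4.53 ± 0.20, adjusted p = 6.4e-17) and lower in MA9 than in WT (-1.87 ± 0.11, adjusted p = 8.1e-15). Ikzf2, the Ikaros family factor Helios, had no counts in BN1 and 4 in ME and rose to 78.3 ± 7.87 CPM in MA9 (2.66 ± 0.11, adjusted p = 4.8e-16), against 12.3 ± 2.02 CPM in WT. Cebpa, a C/EBP factor of granulocyte progenitors, rose by 1.75 ± 0.08 in BN1, 1.40 ± 0.08 in MA9 and 1.30 ± 0.08 in ME, whereas Cebpe, which acts late in granulocytes, fell with changes of -2.21 ± 0.07, -1.04 ± 0.06 and -0.92 ± 0.06 in that order (edgeR, largest adjusted p of the 6 values 9.2e-12). Trib1, a regulator of C/EBP proteins that shapes eosinophil identity in the mouse, fell to 4.99 ± 0.312 CPM in BN1, 1.15 ± 0.330 CPM in MA9 and 0.812 ± 0.0822 CPM in ME, against 36.1 ± 1.97 CPM in WT (largest adjusted p = 1.7e-18). Id2, an inhibitor of helix-loop-helix factors, also fell, to 11.0 ± 1.28 CPM in BN1, 13.6 ± 1.17 CPM in MA9 and 35.9 ± 2.71 CPM in ME, against 70.1 ± 1.84 CPM in WT (largest adjusted p = 2.8e-12). Cebpb, Stat5a and Xbp1 were called higher in every leukemia and Runx1 in BN1 and MA9, with log2 changes between 0.32 and 1.23. Bhlhe40 was called lower in BN1 and MA9, Stat5b in MA9 and ME and Spi1 in MA9, with log2 changes between -1.13 and -0.28. Mitf, a mast cell factor, rose in BN1 to 15.01 ± 0.541 CPM (adjusted p = 7.6e-08) and stood at 8.22 ± 0.460 CPM in MA9 and 8.68 ± 0.854 CPM in ME, against 8.13 ± 0.968 CPM in WT.

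Genes with the most similar pattern were sought among 10800 genes by the Pearson correlation of log2(CPM + 0.5) over the 12 libraries, given as a description. For Cpa3 these were the copper transporter gene Atp7b (r = 0.996), the oxysterol receptor gene Gpr183 (0.996) and Arap2 (0.996), and 77 genes exceeded 0.95. For Prg3 they were Swap70 (0.991), Chst11 (0.988) and Nup210 (0.980), with 51 genes above 0.95. For Mcpt8 they were Pank4 (0.997), Galnt3 (0.995) and Pilra (0.995), with 810 genes above 0.95. For Ms4a2 they were Tmem163 (0.995), Alas2 (0.994) and Cd200r3 (0.994), with 800 genes above 0.95. A high r did not mean a similar residual level. Galnt3 stood at 0, 0.0288 and 0.183 CPM in BN1, MA9 and ME, against 11.8 CPM in WT. Alas2 stood at 0.802, 0.846 and 0.664 CPM in that order, against 421 CPM in WT. For Prss34 they were Slc38a5, Blk and Cyp11a1, for Prg2 Epor, Tbx21 and Tal1, for Epx Ackr1, Alpl and Cldn13, and for Fcer1a Btnl10, Mybpc2 and Car1. The values for these 4 genes ran from 0.998 to above 0.999, and 882 to 925 genes exceeded 0.95.

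Markers of other marrow cells were measured beside the residual levels, as the sort would let normal CD45.2-positive cells through. The 15 red cell markers summed to 137 to 165 CPM in BN1, 133 to 137 CPM in MA9 and 81.0 to 104 CPM in ME, against 35133 to 45233 in WT, and most of the leukemia sum was the transferrin receptor gene Tfrc of dividing cells (the other 14 summed to 21.5, 31.7 and 4.31 CPM). The 14 B cell markers summed to 0.518% (BN1), 1.33% (MA9) and 0.208% (ME) of their WT level, with Ms4a1 and Rag1 at 0 in MA9 and ME. Most of the MA9 sum was the B cell receptor chain gene Cd79b, at 17.6 ± 0.669 CPM in MA9, against 222 ± 10.8 CPM in WT, and the leading gene in BN1 was Igll1, at 4.598 ± 0.635 CPM in BN1, against 23.7 ± 2.11 CPM in WT. The 12 mature neutrophil markers stood at 8.66% (BN1), 1.21% (MA9) and 1.23% (ME) of their WT level, with counts of each in every leukemia group. The T and NK cell list stood at 40.6% in BN1, 7.08% in MA9 and 2.36% in ME, most of it Nkg7 (144, 22.5 and 6.35 CPM, against 1.02, 2.65 and 1.96 CPM for the other members). The megakaryocyte list stood at 6.94% to 12.3% of WT, with Gp1ba making up most of it in BN1 (6.72 ± 0.205 CPM in BN1, against 4.01 ± 0.405 CPM in WT). The dendritic cell list stood at 15.7% to 35.0%. Its leading gene was Bst2 in BN1 and ME and Flt3 in MA9 (106 ± 2.47 CPM in MA9, against 60.8 ± 0.562 CPM in WT). Siglech, a plasmacytoid dendritic cell marker, had 2 counts in BN1, 10 in MA9 and 1 in ME, against 6154 in WT. Siglech did not stand for the list, as Itgax had 143 counts in BN1, 360 in MA9 and 20 in ME, against 1924 in WT. The stromal list, mostly Pecam1, stood at 52.6% to 161%. The basophil marker Prss34 exceeded Mcpt8 in WT. Prss34 was at or near 0 in the leukemia libraries, in which Mcpt8 stood at 13.4% to 18.4% of WT. The eosinophil marker Epx was at or near 0 in MA9, where Prg3 was above WT. Any part of normal cells in these levels was not tested.

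**Figure D4:**
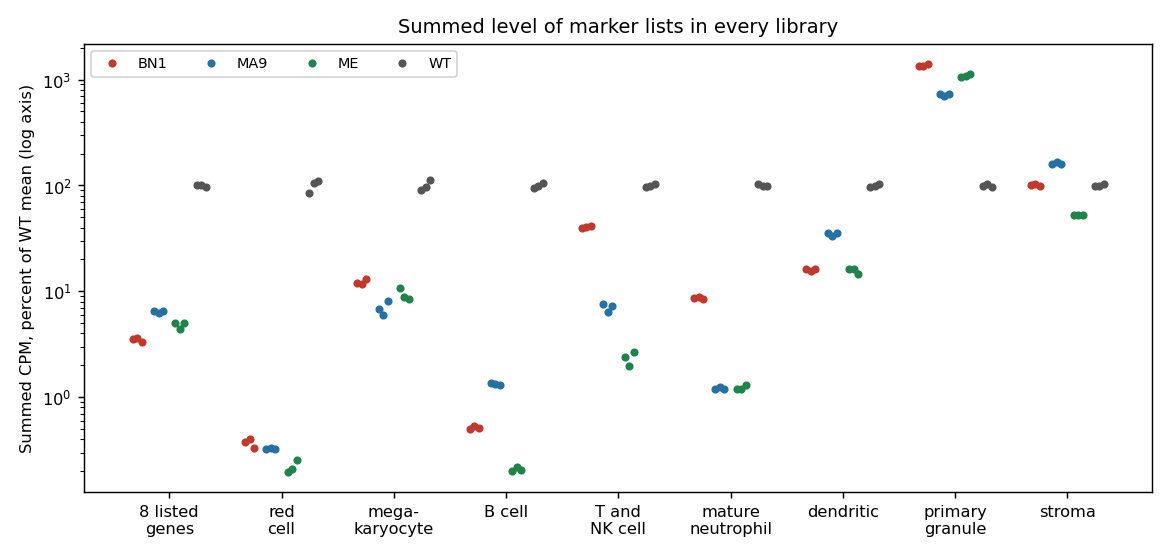
Summed CPM of the 8 genes and of marker lists in every library, as a percent of the WT mean on a log axis, with points for libraries. Relative to WT the 8 genes summed to 3.51% (BN1), 6.40% (MA9) and 4.84% (ME), and the primary granule list stood above WT in every leukemia library.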

How the data were processed

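The deposited values are raw read counts per gene symbol in 12 libraries. The submitters' processing notes name mm10, HISAT2, featureCounts and DESeq2 without versions. For counting, the annotation, the use of strand and the treatment of multiply aligned reads are not stated in any source at hand. Per the labels' protocols, libraries were stranded TruSeq mRNA libraries.

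Genes were filtered with filterByExpr, which kept 15334, scaled with TMM and fitted in 1 quasi-likelihood model with robust dispersion in edgeR 4.0.16 (R 4.3.3) without a replicate block. Alternatives used DESeq2 1.42.0, limma-voom 3.58.1, other scaling, filters and samples. The fit was tried on simulated data with far fewer and smaller changes than here, so that trial does not bear on changes of the present extent. Positions and exon lengths came from GENCODE M21 (GRCm38). Python 3.11.15, pandas 2.3.3, numpy 2.4.6, scipy 1.17.1 and matplotlib 3.10.9 were used.

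The 8 genes, the lists and the tests were chosen with earlier results of these data known. Named beside the 8 genes were, per list, direction and comparison, up to 4 called genes with the largest log2 changes, and the 3 genes of most similar pattern. Cma1, the tryptase and chymase genes, Il4, Slc18a2 and the genes next to a member were named after their values were seen. Genes of the marker lists of other cells, such as Siglech and Itgax, were named outside this rule. Replicate numbers did not pair the libraries, since 2 of 18 correlations of deviations between same-numbered libraries exceeded 0.1. Replicates differed by more than counting noise in each group (mean chi-square per gene 2.00 or more), so none was merged.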

Additional observations from a re-analysis of the deposited data

Results flagged for a closer look

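Differences between the leukemias passed the test for 8 of 24 gene and pair combinations (3 of 8 between BN1 and MA9, 2 of 8 between BN1 and ME and 3 of 8 between MA9 and ME). Over all tested genes 67.7%, 64.7% and 40.6% were called in these pairs. Prss34, Prg2, Epx and Fcer1a (4 of 8) passed the filter through the WT libraries only. They had at most 9 counts in a leukemia group, so few calls between leukemias were possible for them. Nothing is therefore read from the share among the 8 genes, which also changed with the filter, as given below. Prg3 differed in each pair, by -5.65 on the log2 scale between BN1 and MA9, -4.04 between BN1 and ME and 1.61 between MA9 and ME, and relative to WT it was called higher in MA9 and lower in BN1 and ME. Cpa3 was 569-fold lower in BN1 than in MA9 and 238-fold higher in MA9 than in ME. Prg2 was 3.42-fold lower in BN1 than in MA9 with 3 counts set for BN1, on 0 and 9 counts. Mcpt8 differed by -0.46 between BN1 and ME and by -0.33 between MA9 and ME.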

How the results depend on the processing

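Keeping only genes with at least 10 counts in 3 leukemia libraries left 4 of the 8 genes in the fit. All 4 were called against WT in each leukemia, beside 10995 (BN1), 11080 (MA9) and 10981 (ME) of the 14204 genes then tested. Between the leukemias, 2 of these 4 were called in BN1 against MA9, 2 in BN1 against ME and 3 in MA9 against ME. Under this filter Cpa3 passed through the MA9 libraries only and Prg3 through those of MA9 and ME, where they are high. Their calls between leukemias were thus favoured by the filter, and nothing is read from these counts. Of the 14204 genes, 10159, 9766 and 6145 were called in that order. With CPM of raw library totals the residual level was 14.6% for Mcpt8 in BN1, 16.5% for Mcpt8 in MA9 and 30.2% for Cpa3 in MA9. With each library left out in turn, the number of the 8 genes called was 8 to 8 in BN1 against WT, 8 to 8 in MA9 against WT, 7 to 8 in ME against WT, 2 to 3 in BN1 against MA9, 2 to 2 in BN1 against ME and 3 to 4 in MA9 against ME (Prg2 was called without MA9 replicate 2). Residual levels then ran from 13.1% to 13.8% (Mcpt8, BN1), 14.2% to 15.3% (Mcpt8, MA9), 17.7% to 19.5% (Mcpt8, ME), 26.2% to 27.5% (Cpa3, MA9), 7.42% to 9.29% (Ms4a2, BN1), 6.99% to 9.82% (Ms4a2, MA9), 7.08% to 8.13% (Ms4a2, ME), 0.183% to 0.877% (Prg2, MA9), 2.72% to 4.70% (Prg3, BN1), 181% to 214% (Prg3, MA9) and 55.4% to 71.0% (Prg3, ME).

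The uncalled log2 difference of Ms4a2 turned sign between BN1 and MA9 without BN1 replicate 1 (0.10), BN1 replicate 3 (0.08) or MA9 replicate 2 (0.31; range -0.23 to 0.31), between BN1 and ME without BN1 replicate 2 (-0.042; range -0.042 to 0.28), and between MA9 and ME without MA9 replicate 2 (range -0.14 to 0.34). For the other listed genes with over 3 counts in both groups, 4733 of 4783 recomputed called values stayed called with the same sign, 50 lost the call and 0 reversed. With the replicate block, 8, 8, 8, 3, 2 and 3 of the 8 genes were called in the order of comparisons above, as without it. The 8 genes kept their calls under RLE, upper-quartile scaling, DESeq2 and no filter. Depth limits Prss34, Prg2, Epx and Fcer1a, and Cpa3 in BN1 and ME, where a group holds at most 9 counts.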
